A study of Mus musculus with 4 samples.

Results

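The genes described here encode enzymes of central carbon metabolism: glycolysis with glucose uptake, the exit of pyruvate to lactate or to acetyl-CoA, the tricarboxylic acid (TCA) cycle, the pentose phosphate pathway, and Acod1, which makes itaconate. A list of 39 genes was matched by symbol to the array's transcript clusters, the probe sets that each report 1 transcript unit. Only clusters annotated with a single gene symbol were used, and a gene with several of them was read from the cluster brightest on average. This gave values for 34 of the 39 genes, out of 22180 genes in the series, and all 34 passed the filter on dim genes. Gpi1, Eno1 and G6pdx matched no cluster, and Aldoa and Tkt matched only clusters that carry a second symbol, so these 5 were not analysed here.

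The study compared CX3CR1bright with CX3CR1low macrophages of the adult mouse dermis, with 2 arrays for each subset. All animals were untreated C57Bl/6 mice of the genotype Cx3cr1+/gfp, so that both subsets came from mice with GFP in an allele of the fractalkine receptor gene. Each array holds RNA of cells sorted from digested ear skin of a pool of 3 to 6 mice, and a subset's arrays came from independent litters. The values are RMA levels on the log2 scale, and differences below are CX3CR1bright minus CX3CR1low with the SE of the limma fit and n = 2 arrays per subset.

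Glycolysis splits glucose into pyruvate in the cytosol, and its flux is set mainly at glucose uptake, hexokinase, phosphofructokinase and pyruvate kinase. The pentose phosphate pathway branches off after the hexokinase step and yields NADPH and ribose phosphate, and pyruvate that enters mitochondria feeds the TCA cycle as acetyl-CoA. In macrophages, inflammatory stimuli are known to raise glycolysis and to interrupt the TCA cycle at isocitrate dehydrogenase and succinate dehydrogenase, and Acod1 then converts the TCA intermediate cis-aconitate to itaconate.

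Cx3cr1, on which the sort was based, stood at 8.42 and 8.44 on the CX3CR1bright arrays and at 3.63 and 3.60 on the CX3CR1low arrays. Macrophage markers were bright on all arrays, with list medians of 10.6 and 10.7 in CX3CR1bright and 10.8 and 11.1 in CX3CR1low cells, and the array medians were 3.65 to 3.68. Of the 12 macrophage markers, 9 were lower in CX3CR1bright cells and 3 higher. The subsets did not overlap for 8 lower and 2 higher markers, where 31.5% and 18.9% of all tested genes were lower and higher without overlap. Transcripts of other skin cells were unevenly spread. The median of 11 measured keratinocyte markers was 6.33 and 8.47 on CX3CR1bright replicates 1 and 2, against 5.83 and 5.08 on CX3CR1low replicates 1 and 2, and that of 10 fibroblast markers was 6.21 and 6.39 against 5.21 and 5.19. Conventional dendritic cell markers (7 measured) had medians of 5.85 and 6.13 against 4.62 and 4.58. Langerhans cell markers (4 measured) had medians of 6.72 and 7.76 against 5.65 and 5.29, with a median difference of 1.91. Cdh1 is on both this list and the keratinocyte list, and Epcam lay at 4.53 and 6.73 against 3.91 and 4.06. Cd207 lay at 6.97 and 7.54 against 5.20 and 4.82, and Il1r2 at 8.18 and 7.98 against 6.41 and 5.98. For monocyte markers (5 measured) the medians were 6.89 and 5.37 against 5.77 and 4.35, with a median difference of 0.86. This list was split. Ccr2, Fn1 and Vcan differed by 1.90, 1.34 and 0.86, while Ly6c2 and Plac8 overlapped between the subsets, with differences of 0.051 and 0.81. Skeletal muscle markers lay near the array median on all arrays, at 3.66 and 3.95 against 3.90 and 4.44. The part of these cells in the results below was not tested, and in bulk RNA fewer cells of a type and less RNA per cell cannot be told apart.

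The glucose transporter gene Slc2a1 and the lactate dehydrogenase gene Ldhb lay higher in CX3CR1bright cells, and the hexokinase gene Hk3, the phosphofructokinase-2 genes Pfkfb3 and Pfkfb4 and the TCA-linked genes Idh1, Idh2 and Fh1 lay lower. None of the 34 genes passed the threshold of 0.05 after adjustment over all 13133 tested genes (limma), where 0.137% of all genes did. At an unadjusted p under 0.05, 2 genes were higher, 5.88% of the 34 against 7.03% of all tested genes, and 6 were lower, 17.6% against 11.8%. The subsets did not overlap for 4 higher genes, 11.8% against 18.9% of all tested genes, and for 11 lower genes, 32.4% against 31.5%. Hk3 and Idh1 were at least 2-fold lower without overlap, 5.88% against 2.89%. From 34 genes these shares do not set the enzymes apart from other genes, and the median difference of the 34 genes was -0.13 against -0.070 over all tested genes. Among genes with a mean level above 6 over the 4 arrays, the listed genes had -0.131 and all genes -0.125. The 8 genes named above are therefore described one by one.

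Of these 8 genes, 3 passed the threshold when the variance model or the set of tested genes was changed. These changes raised the count of passing genes in the whole series as well. It went from 18 of 13133 tested genes to 308 of 13133 with an intensity trend in the variance prior. With genes above a mean level of 6 it was 457 of 5820, and 3 of the 28 listed genes tested there passed. The 3 passes thus came where many other genes passed too. With an intensity trend in the variance prior, the adjusted p (limma) was 0.0306 for Hk3, 0.0354 for Idh1 and 0.0451 for Slc2a1, and with genes above a mean level of 6 it was 0.0166, 0.0229 and 0.0434 in the same order. Over all 13 alternatives the adjusted p ran from 0.0166 to 0.445 for Hk3, from 0.0229 to 0.451 for Idh1 and from 0.0434 to 0.556 for Slc2a1. Keratinocyte markers were highest on CX3CR1bright replicate 2. Without this array the difference was 0.86 for Slc2a1, -1.26 for Hk3, -0.61 for Pfkfb3 and -0.665 for Pfkfb4. Without CX3CR1low replicate 1 it was 1.04 for Slc2a1 and -1.06 for Pfkfb4, and without CX3CR1low replicate 2 it was 0.71 and -0.685. Each such fit leaves 1 array in a subset, so counts of genes from it cannot be compared with those from all 4 arrays.

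**Figure D1:**
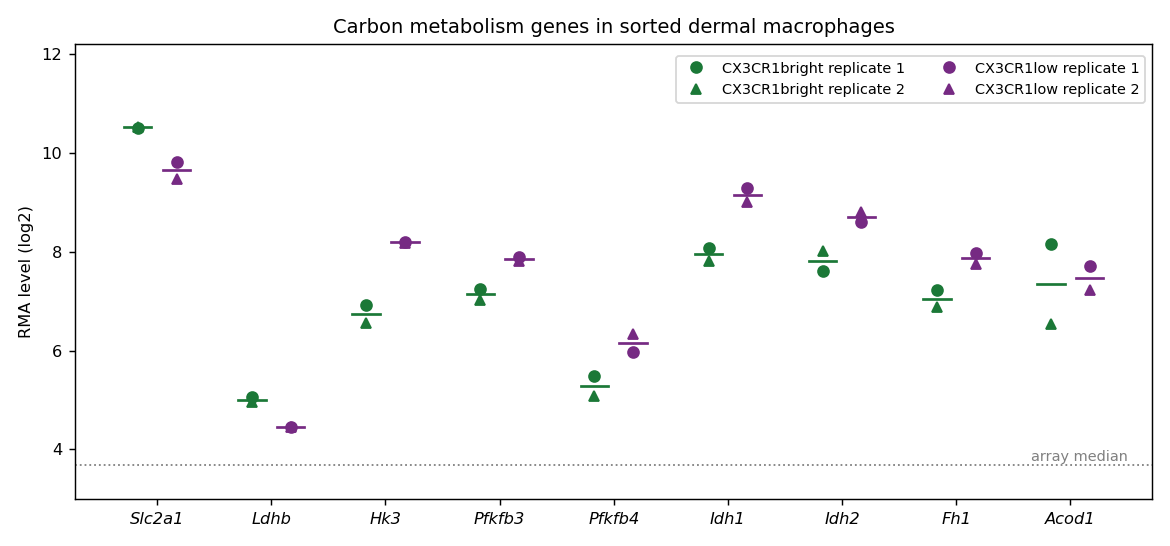
RMA levels (log2) of the 8 genes with an unadjusted p under 0.05 and of Acod1 on each array, with CX3CR1bright (green) left of CX3CR1low (purple), circles for replicate 1, triangles for replicate 2 and bars for the subset mean. Points of the subsets do not overlap for the 8 genes; for Acod1 the CX3CR1bright arrays, at 8.15 and 6.55, lie on either side of the CX3CR1low arrays.

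Slc2a1 encodes GLUT1, the transporter for basal glucose uptake in many cell types, among them keratinocytes. It stood at 10.51 and 10.53 on the CX3CR1bright arrays and at 9.81 and 9.48 on the CX3CR1low arrays (cluster 17417844). Both CX3CR1bright values were above both CX3CR1low values, and the difference was 0.87 ± 0.21, or 1.83-fold (limma, adjusted p = 0.135). Keratinocyte and fibroblast list medians were also higher on the CX3CR1bright arrays, and their part in this difference was not tested. Without CX3CR1bright replicate 2 the difference was 0.86, and without replicate 1 it was 0.89. Averaged with the gene's other cluster (17429307), which lay at 3.80 to 4.19, the difference was 0.49.

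Of the other glucose transporters, the high-affinity transporter gene Slc2a3 (GLUT3) stood at 6.68 and 6.75 in CX3CR1bright and at 5.94 and 5.66 in CX3CR1low cells, a difference of 0.91 ± 0.20 (limma, adjusted p = 0.121). Slc2a6 (GLUT6), a transporter of intracellular membranes, lay at 6.13 and 6.29 against 5.32 and 4.93, a difference of 1.08 ± 0.22 (limma, adjusted p = 0.111). In the opposite direction, Slc2a8 (GLUT8), also found on intracellular membranes, lay at 5.32 and 5.22 against 6.51 and 6.21, a difference of -1.09 ± 0.20 (limma, adjusted p = 0.103). These belong to a list of 29 further genes of glucose transport and glycolysis, of which 20 were tested and 0 passed (limma), with a median of -0.16. At an unadjusted p under 0.05, 2 of the list were higher and 2 lower, where 7.03% and 11.8% of all tested genes were. The subsets did not overlap for any of these 3 genes, and none passed the threshold with all genes tested. With genes above a mean level of 6, Slc2a3 did (limma, adjusted p = 0.0356), where 457 of all 5820 tested genes did.

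Hexokinases trap glucose in the cell as glucose 6-phosphate, and 3 isozyme genes were measured. Hk3, an isozyme of myeloid cells, stood at 6.93 and 6.55 in CX3CR1bright and at 8.20 and 8.18 in CX3CR1low cells. It had the most negative difference of the 34 genes, -1.45 ± 0.21 or 2.74-fold lower (limma, adjusted p = 0.0830), and leaving out single arrays gave -1.64 to -1.26. Hk2, the inducible isozyme, lay at 7.16 and 7.61 against 7.90 and 8.02, without overlap, a difference of -0.57 ± 0.23 (limma, adjusted p = 0.271). Hk1, the isozyme of most tissues, lay at 6.06 and 6.00 against 5.99 and 6.15, and its subsets overlapped (-0.041 ± 0.19).

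The phosphofructokinase-1 genes, whose product catalyses the committed step of glycolysis, overlapped between the subsets for all 3 isoforms. Pfkp, the platelet-type isoform, differed by 0.048 ± 0.24, Pfkl, the liver type, by -0.17 ± 0.28 and Pfkm, the muscle type, by 0.24 ± 0.31, the last at levels near the array median. The bifunctional PFKFB enzymes make and degrade fructose 2,6-bisphosphate, the activator of phosphofructokinase-1, and the 2 listed genes, Pfkfb3 and Pfkfb4, lay lower. Pfkfb3, whose kinase activity far exceeds its phosphatase activity, stood at 7.24 and 7.03 in CX3CR1bright and at 7.89 and 7.80 in CX3CR1low cells, a difference of -0.71 ± 0.19 or 1.64-fold lower (limma, adjusted p = 0.160). Pfkfb4 stood at 5.49 and 5.08 against 5.97 and 6.34, a difference of -0.87 ± 0.25 or 1.83-fold lower (limma, adjusted p = 0.173). Neither gene had overlapping subsets. Pfkfb2, from the list of other glycolytic genes, lay at 4.55 and 5.16 against 4.96 and 5.23, with overlap.

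Many genes of glycolysis are known targets of the hypoxia-inducible factor HIF-1, which binds the core ACGTG or GCGTG, and of MYC and MLX proteins, which bind E-boxes such as CACGTG. Promoters from RefSeq (GRCm38.p6) were available for 38 of the 39 genes, in 58 windows of 250 bases before a transcription start, some of them overlapping. ACGTG, searched on both strands, was in 37.9% of these windows, against 20.8% of the windows of tested genes and 16.6% of all 32851 windows. GCGTG was in 56.9%, against 41.6% and 28.2%. CACGTG, each match of which also holds ACGTG, was in 10.3%, against 8.0% and 6.0%. These percentages count windows, so a gene with many starts weighs more. Several of the 6 CACGTG windows and of the 22 ACGTG windows were alternative, partly overlapping starts of the same gene, Ogdh. Counted by gene, ACGTG was found for 14 of the 38 genes, GCGTG for 26 and CACGTG for 4. No share by gene was computed for tested or all genes, so these counts cannot be set against a background. Every Ogdh window held ACGTG, and CACGTG was found only for Pfkfb3, Ldha, Pfkm and Ogdh. The window shares were not computed without Ogdh, so an excess of ACGTG or CACGTG cannot be read from them and was not tested. The windows below show the transporter gene that lay higher beside 4 genes that lay lower, as the 160 bases before the start, 5′ to 3′ on the gene's strand, with matches to ACGTG or GCGTG or their reverse complements in capitals. They lie at chr4:119108585-119108744 (plus strand) for Slc2a1, chr13:55021386-55021545 (minus) for Hk3, chr2:11553930-11554089 and chr2:11502091-11502250 (minus) for the first and second start of Pfkfb3, chr9:108991742-108991901 (plus) for Pfkfb4 and chr7:80115351-80115510 (minus) for Idh2.
Slc2a1: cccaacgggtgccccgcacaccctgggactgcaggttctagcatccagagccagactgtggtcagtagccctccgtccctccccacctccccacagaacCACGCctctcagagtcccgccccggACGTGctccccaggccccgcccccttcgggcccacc
Hk3: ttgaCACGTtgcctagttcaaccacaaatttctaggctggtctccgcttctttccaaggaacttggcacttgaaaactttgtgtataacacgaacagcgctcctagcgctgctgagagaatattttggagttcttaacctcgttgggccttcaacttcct
Pfkfb3 first start: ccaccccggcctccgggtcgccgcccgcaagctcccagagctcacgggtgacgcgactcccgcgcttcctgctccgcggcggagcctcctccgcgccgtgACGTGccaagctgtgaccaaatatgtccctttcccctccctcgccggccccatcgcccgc
Pfkfb3 second start: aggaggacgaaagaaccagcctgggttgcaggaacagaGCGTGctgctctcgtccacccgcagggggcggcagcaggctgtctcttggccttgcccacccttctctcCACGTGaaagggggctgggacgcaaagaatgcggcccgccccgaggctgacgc
Pfkfb4: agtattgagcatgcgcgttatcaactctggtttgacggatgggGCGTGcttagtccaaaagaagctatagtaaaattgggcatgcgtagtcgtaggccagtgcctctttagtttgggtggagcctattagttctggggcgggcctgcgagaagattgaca
Idh2: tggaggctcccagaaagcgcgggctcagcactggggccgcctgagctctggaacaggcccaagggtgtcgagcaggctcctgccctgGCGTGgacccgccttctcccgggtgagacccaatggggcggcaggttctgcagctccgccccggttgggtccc

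All 6 windows held a match to either core, as did 79.3% of the windows of the listed genes and 52.7% of those of tested genes. Of the 3 remaining genes among the 8, Ldhb and Fh1 had 1 GCGTG match each, and of the 2 Idh1 windows 1 had a GCGTG match and the other neither core. The Slc2a1 window held 1 match to ACGTG and 1 to GCGTG. The second Pfkfb3 start was the only one of the 6 windows with CACGTG. A match is a description of the letters and says nothing of binding in these cells.

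From aldolase to pyruvate kinase, 7 genes were measured. Without overlap, 2 were lower and 0 higher, where 31.5% and 18.9% of all tested genes were. Gapdh, which makes NADH from glyceraldehyde 3-phosphate, stood at 10.35 and 9.90 in CX3CR1bright and at 10.34 and 10.16 in CX3CR1low cells, with overlap (-0.13 ± 0.23). It is annotated on 3 clusters alone and on 8 more together with a pseudogene or predicted gene, so its value may include near-identical copies. Pgk1 and Pkm, the ATP-yielding phosphoglycerate and pyruvate kinases, differed by 0.062 ± 0.19 and -0.12 ± 0.19, and the aldolase gene Aldoc and the enolase gene Eno2 by 0.17 ± 0.23 and -0.19 ± 0.22, all with overlap. Tpi1, triose phosphate isomerase, lay at 9.36 and 8.94 against 9.77 and 9.38, a difference of -0.43 ± 0.25, and Pgam1, phosphoglycerate mutase, at 8.48 and 8.41 against 8.74 and 8.81, a difference of -0.33 ± 0.18. These were the 2 genes without overlap, and neither passed (limma, adjusted p = 0.423 and 0.389). The second Pgam1 cluster had a difference of -0.57, the same sign.

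The 16 measured glycolytic genes had a median difference of -0.15, with 5 positive and 11 negative, against -0.070 over all tested genes. It was -0.16 against -0.125 among genes with a mean level above 6. The median was -0.059 after quantile normalization and -0.033 after cyclic loess, and it ran from -0.29 without CX3CR1bright replicate 1 to -0.085 without CX3CR1bright replicate 2.

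**Figure D2:**
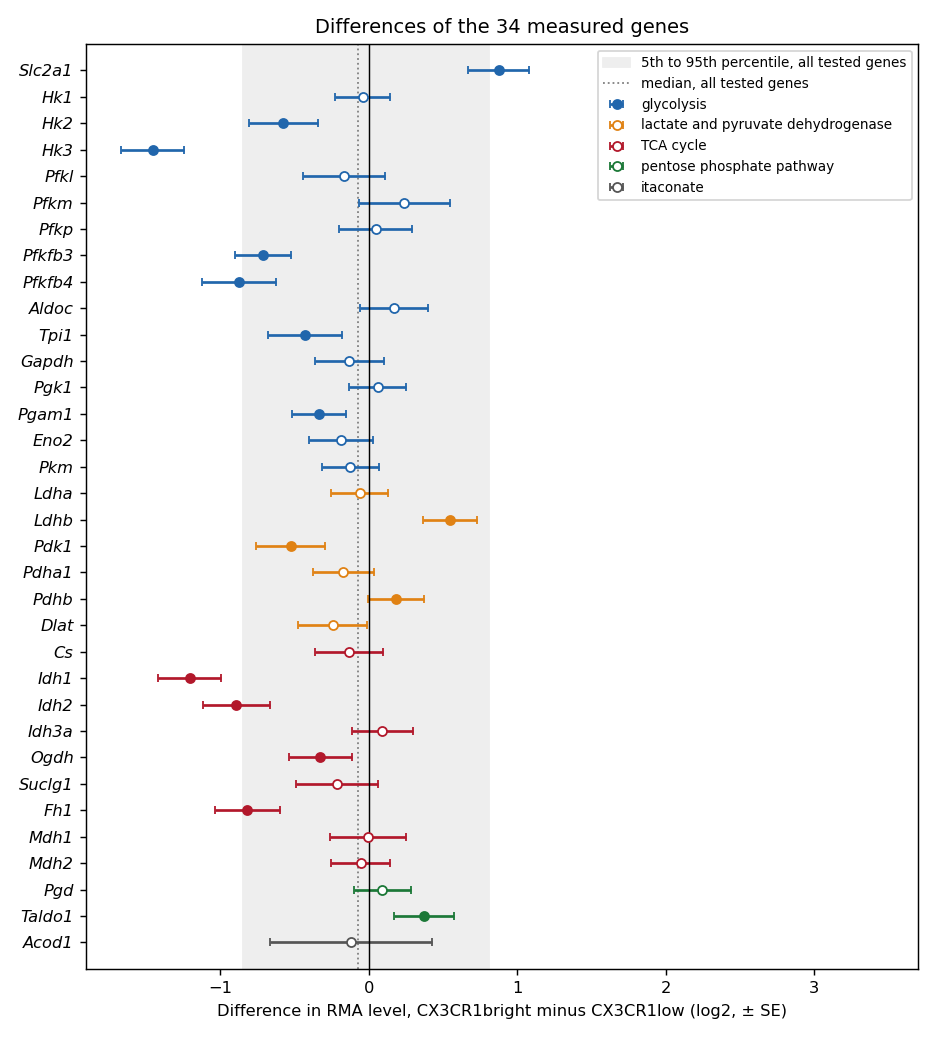
Difference in RMA level, CX3CR1bright minus CX3CR1low (log2, bars show the SE), for each of the 34 measured genes, coloured by pathway, with filled points where the subsets do not overlap. Grey marks the 5th to 95th percentile of all tested genes, -0.84 to 0.81; Slc2a1 lies above it and Hk3, Pfkfb4, Idh1 and Idh2 below it.

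Lactate dehydrogenase, at the pyruvate branch, is built from 2 main subunits. Ldhb, whose subunit predominates in heart, stood at 5.06 and 4.96 in CX3CR1bright and at 4.45 and 4.46 in CX3CR1low cells. The subsets did not overlap, and the difference was 0.55 ± 0.18 or 1.46-fold (limma, adjusted p = 0.203). Ldha, the subunit of muscle and of glycolytic cells, lay at 6.73 and 6.50 against 6.70 and 6.65, with overlap, and the difference of -0.060 ± 0.19 had a 95% confidence interval of -0.55 to 0.43. Ldhd, which oxidises D-lactate in mitochondria, came from the list of other genes and lay at 3.77 and 3.72 against 4.56 and 4.72, a difference of -0.90 ± 0.19 at levels close to the array median (limma, adjusted p = 0.111).

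The pyruvate dehydrogenase complex makes acetyl-CoA, and its subunit genes Pdha1, Pdhb and Dlat differed by -0.17 ± 0.20, 0.19 ± 0.19 and -0.24 ± 0.23. Only Pdhb was without overlap among these 3, at 8.51 and 8.55 against 8.24 and 8.44. Pdk1, a kinase that switches the complex off, was dim, at 3.91 and 3.73 in CX3CR1bright and 4.13 and 4.57 in CX3CR1low cells (-0.53 ± 0.23; limma, adjusted p = 0.304). Pdp1, the phosphatase that switches the complex on, lay at 6.26 and 6.27 against 6.92 and 7.36, without overlap, a difference of -0.88 ± 0.22 (limma, adjusted p = 0.151). Dld, the subunit that this complex shares with oxoglutarate dehydrogenase, lay higher in CX3CR1bright cells, at 7.33 and 7.22 against 6.58 and 6.89.

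Of the 9 measured genes of the TCA cycle and its cytosolic counterparts, 8 had negative differences, with a median of -0.21. Of all 13133 tested genes, 7555 had negative differences, with a median of -0.070. Among genes with a mean level above 6 the median was -0.21 for the TCA genes and -0.125 for all genes. Idh1, the cytosolic isocitrate dehydrogenase that yields NADPH, stood at 8.08 and 7.81 in CX3CR1bright and at 9.28 and 9.01 in CX3CR1low cells, without overlap. The difference was -1.20 ± 0.21 or 2.31-fold lower (limma, adjusted p = 0.0967), and -1.34 to -1.07 with 1 array left out. Idh2, its mitochondrial NADP-dependent counterpart, stood at 7.61 and 8.01 against 8.59 and 8.81, also without overlap, a difference of -0.89 ± 0.23 or 1.85-fold lower (limma, adjusted p = 0.150). Idh3a, the catalytic subunit of the NAD-dependent enzyme of the cycle, overlapped at 6.24 and 6.13 against 6.25 and 5.94 (0.093 ± 0.21). Of its partner subunits, Idh3b and Idh3g differed by -0.024 ± 0.20 and -0.15 ± 0.19. The difference between the NADP-dependent and the NAD-dependent genes was not tested.

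Fh1, fumarate hydratase, stood at 7.22 and 6.87 in CX3CR1bright and at 7.98 and 7.75 in CX3CR1low cells. The subsets did not overlap, and the difference was -0.82 ± 0.22 or 1.76-fold lower (limma, adjusted p = 0.159). Ogdh, the oxoglutarate dehydrogenase subunit, lay at 9.37 and 9.43 against 9.54 and 9.91, without overlap, by -0.32 ± 0.21. The citrate synthase gene Cs, the succinyl-CoA ligase gene Suclg1 and the malate dehydrogenase genes Mdh1 and Mdh2 all overlapped, with differences of -0.13 ± 0.23, -0.21 ± 0.28, -0.0022 ± 0.25 and -0.054 ± 0.20. The median of the 9 genes was -0.10 after quantile normalization, -0.068 after cyclic loess and -0.35 without CX3CR1low replicate 1.

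A separate list of 30 further genes of pyruvate entry and the TCA cycle held 27 tested genes, with 0 past the threshold (limma). At an unadjusted p under 0.05, 2 were higher and 4 lower, where 7.03% and 11.8% of all tested genes were. The median difference of the 27 genes was -0.26. Succinate dehydrogenase, which links the cycle to the respiratory chain, had Sdhd at 6.56 and 6.40 against 7.05 and 7.14 and a difference of -0.62 ± 0.19 (limma, adjusted p = 0.184). Sdha, Sdhb and Sdhc differed by -0.35 ± 0.18, -0.30 ± 0.19 and -0.50 ± 0.18. The malic enzymes convert malate to pyruvate and yield NADPH in the cytosolic form: mitochondrial Me2 lay at 6.68 and 6.53 against 7.32 and 7.16 (-0.64 ± 0.19), and cytosolic Me1 at 5.69 and 5.70 against 4.98 and 3.52 (1.44 ± 0.48). The Me1 value rested partly on CX3CR1low replicate 2, since the difference was 0.71 without that array and 2.17 without CX3CR1low replicate 1.

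**Figure D3:**
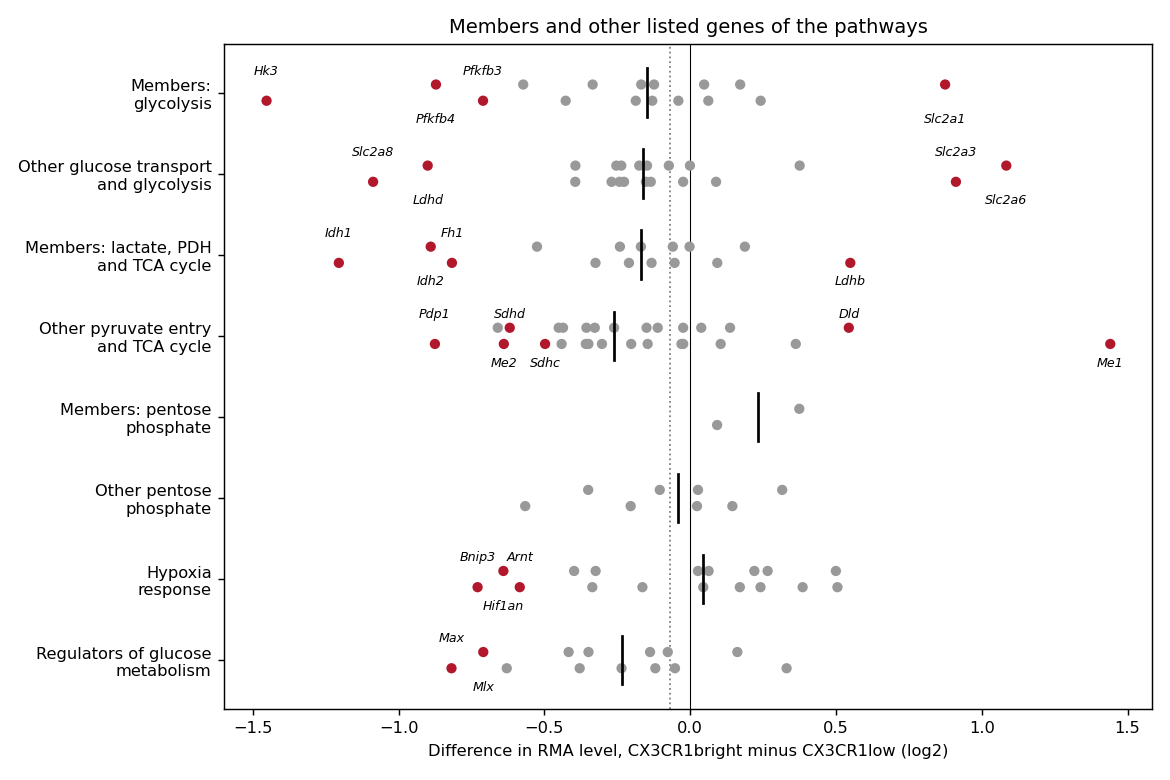
Difference in RMA level (log2) for the described genes and for the further listed genes of each pathway, with 1 point per tested gene, red where the unadjusted p is under 0.05, a black bar at each list's median and a dotted line at the median of all tested genes, -0.070. The glucose transporter genes Slc2a1, Slc2a3 and Slc2a6 lie at the right and Slc2a8 at the left; Me1 has the largest positive difference among the points.

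In the pentose phosphate pathway, Pgd, the 6-phosphogluconate dehydrogenase that yields NADPH, stood at 10.66 and 10.53 in CX3CR1bright and at 10.39 and 10.61 in CX3CR1low cells, with overlap (0.092 ± 0.19). Taldo1, the transaldolase of the non-oxidative arm, lay at 9.18 and 8.89 against 8.70 and 8.63, without overlap, a difference of 0.37 ± 0.20 (limma, adjusted p = 0.384). The pathway's other listed genes had 8 tested and 0 at an unadjusted p under 0.05 in either direction, where 7.03% of all tested genes were higher and 11.8% lower. Among them were Pgls, the lactonase after glucose 6-phosphate dehydrogenase, at -0.35 ± 0.20, H6pd, the dehydrogenase of the endoplasmic reticulum, at -0.57 ± 0.34, Rpia, ribose 5-phosphate isomerase, at 0.32 ± 0.21, and Shpk, sedoheptulose kinase, at 0.14 ± 0.20.

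Acod1 varied more within the subsets than between them. Levels on replicates 1 and 2 were 8.15 and 6.55 for CX3CR1bright and 7.71 and 7.23 for CX3CR1low, with a mean of 7.35 ± 1.13 against 7.47 ± 0.34 (SD, n = 2 each). The difference was -0.12 ± 0.54 and changed sign with single arrays, at -0.92 without CX3CR1bright replicate 1 and 0.68 without CX3CR1bright replicate 2. In both subsets the replicate 1 array was the higher. Nos2, the inducible nitric oxide synthase, and the monocyte gene Ly6c2, both chosen after their values were seen, had the same order. Nos2 stood at 6.50 and 3.13 in CX3CR1bright and at 7.98 and 3.97 in CX3CR1low cells, and Ly6c2 at 6.89 and 4.66 against 7.54 and 3.90. The labels do not say that arrays of the same replicate number share a litter.

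Among 11 tested genes of itaconate and inflammatory activation, 5 were higher and 3 lower without overlap, where 18.9% and 31.5% of all tested genes were. Nlrp3, the inflammasome sensor, differed by 0.67 ± 0.22. Il1b, an inflammatory cytokine, lay at 11.93 and 11.67 in CX3CR1bright and 11.33 and 11.08 in CX3CR1low cells, a difference of 0.59 ± 0.21. Il1a differed by 0.44 ± 0.18 and Hmox1, heme oxygenase, by -0.46 ± 0.19. None of these 11 genes passed the threshold (limma). At an unadjusted p under 0.05, 2 were higher and 0 lower, where 7.03% and 11.8% of all tested genes were.

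Slc2a1 is also a target of the hypoxia response. Of 17 other tested genes of that response, 0 passed the threshold (limma), and their median difference was 0.045. At an unadjusted p under 0.05, 0 were higher and 3 lower, where 7.03% and 11.8% of all tested genes were. Hif1a lay at 8.38 and 8.81 in CX3CR1bright and 8.29 and 8.42 in CX3CR1low cells, with overlap, and the HIF target Vegfa at 10.78 and 10.27 against 10.61 and 10.31. The 3 lower genes were Arnt, the partner of HIF-1α, at -0.58 ± 0.18, the mitophagy receptor gene Bnip3 at -0.73 ± 0.19 and the HIF inhibitor gene Hif1an at -0.64 ± 0.18, which lay below the array median on the CX3CR1bright arrays. Hif1an passed the filter on dim genes only through the CX3CR1low arrays, where it was higher, so its place among the 3 carries no weight. Car9, a HIF target, differed by 0.50 ± 0.24.

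Among regulators of glucose metabolism, 11 of 13 tested genes had negative differences, with a median of -0.24, where 7555 of all 13133 tested genes had. Of the 13, 0 passed the threshold (limma), and 2 were lower at an unadjusted p under 0.05, where 11.8% of all tested genes were. Max, the partner of MYC, lay at 8.96 and 8.66 in CX3CR1bright and at 9.53 and 9.73 in CX3CR1low cells, a difference of -0.82 ± 0.21 (limma, adjusted p = 0.154). Mlx, the partner of the carbohydrate-response factor ChREBP, differed by -0.71 ± 0.28 and Esrra, an orphan nuclear receptor of mitochondrial genes, by -0.63 ± 0.26. Txnip, which restrains glucose uptake, lay at 10.20 and 10.11 against 10.49 and 10.66 (-0.42 ± 0.19).

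**Figure D4:**
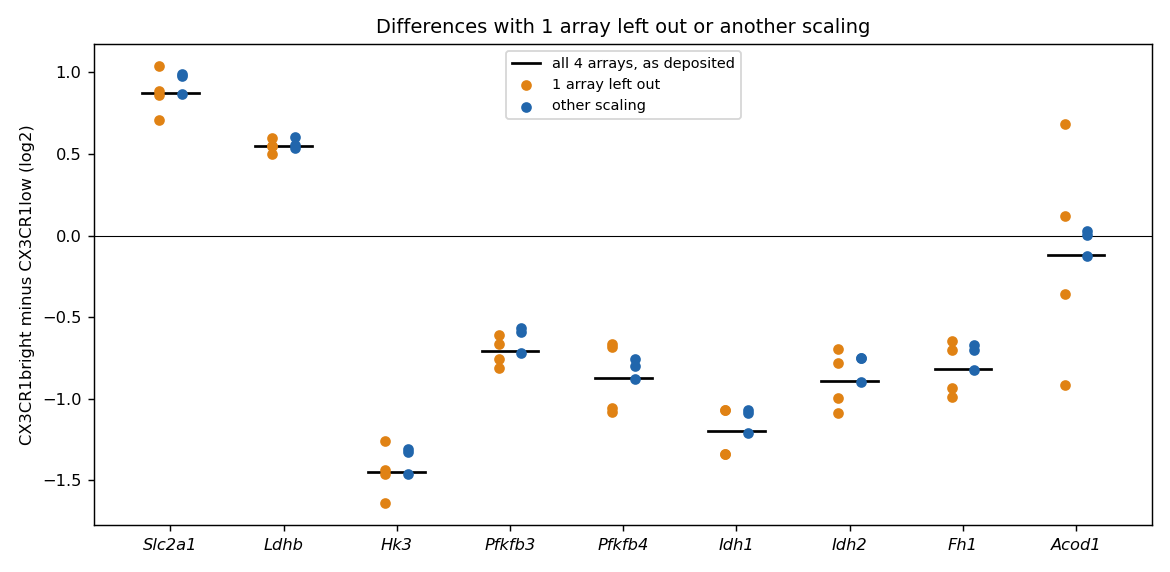
Difference of 9 genes, CX3CR1bright minus CX3CR1low (log2), with all 4 arrays as deposited (black bars), with 1 array left out (orange) and after quantile normalization, median centring or cyclic loess (blue). The 8 genes other than Acod1 keep their sign at every point, and Acod1 runs from -0.92 to 0.68. The 8 genes were chosen with no overlap between the subsets, so leaving out 1 array could not change their sign.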

How the data were processed

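Total RNA from sorted cells was labelled with Affymetrix WT Pico reagents and hybridised to whole-transcript arrays, per the labels' protocols. Per the submitters' processing notes, the authors ran RMA in Expression Console 1.4, a method that corrects background, normalizes between arrays and summarises probes, and the deposited values are log2 levels per cluster. The genome build is not given in the sources used here.

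Of 34390 clusters, 23521 carried 1 gene symbol, 1814 several and 9055 none in the platform annotation. Testing required a level over the array median on 2 or more of the 4 arrays, and 13133 of 22180 genes met this. limma 3.58.1 (R 4.3.3) gave the comparison of the subsets (functions lmFit and eBayes, two-sided, Benjamini-Hochberg over all tested genes, threshold 0.05), with 2 residual and 3.28 prior degrees of freedom. The procedure was tested on simulated data. The small number of arrays, 2 per subset, limits the precision, and the spread behind each p-value is that between pooled samples.

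The genes, lists and tests were chosen with earlier results of these data known. Values per array are given for genes with an unadjusted p under 0.05 and no overlap, for Acod1, and for most enzymes of the same step. The 4 genes with the smallest p of each other list are named, some by their difference alone. Pfkfb2, Dld, Idh3b, Idh3g, Sdha, Sdhb, Sdhc, Hif1a and Vegfa fall outside this rule and were chosen after their values were seen. Of the marker lists not given elsewhere, the median differences were -0.029 for endothelial, 0.34 for T cell, -0.24 for mast cell and 0.11 for melanocyte genes, and erythroid genes were not analysed here. Promoter windows came from RefSeq, and protein sequences were not used here. Alternatives were other filters, the mean of a gene's clusters, other scalings, other variance priors, the replicate number as a block, and each array left out.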

Additional observations from a re-analysis of the deposited data

How the results depend on the processing

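Of the 34 genes, 15 had a difference larger than its SE, and 0 of these changed sign under any of the 13 alternatives. Of the other 19, 15 did under at least 1. Most of the 15 genes with the larger differences had subsets without overlap, and leaving out 1 array cannot reverse the sign of such a gene. Other filters, other variance priors and the replicate block leave a difference as it is. The stable signs were thus largely fixed in advance and carry little weight. The count of genes past the threshold among the 34 was 0, and 3 with an intensity trend and with the stricter filter; with 1 array left out it was 0 throughout. The count over all genes was 18. It was 1 with no filter, with quantile normalization and with a robust prior, 457 with the stricter filter, 33 with cyclic loess, 308 with an intensity trend, and 0 to 154 with 1 array left out. The number of the 34 that were higher at an unadjusted p under 0.05 was 2, 1 with the stricter filter, the mean of a gene's clusters and an intensity trend, and 3 with cyclic loess, which added Taldo1; with 1 array left out it was 0 to 2, and the number lower was 3 to 7. The median of the 34 was -0.026 after quantile normalization and -0.0084 after cyclic loess, and -0.21 to -0.085 with 1 array left out. Glycolytic genes had -0.059 and -0.033 after these scalings, and -0.29 to -0.085 with 1 array left out. The lactate and pyruvate dehydrogenase genes had -0.0080 and 0.022, and -0.10 to -0.047. The TCA genes had -0.10 and -0.068, and -0.35 to -0.14. The 2 pentose phosphate genes had a median of 0.23, which was 0.33 after quantile normalization, 0.36 after cyclic loess and 0.13 to 0.34 with 1 array left out, the lowest without CX3CR1bright replicate 1. The scalings moved the median of all genes from -0.070 to -0.011 and 0.017. The cause of these shifts was not tested.

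With the replicate number as a replicate block, 0 genes passed over all genes and 0 of the 34 (limma, 2637 of all genes at an unadjusted p under 0.05). The deviations of same-numbered arrays from their subset means correlated at 0.155 across genes, over only 2 pairs, and the labels do not say that a number marks a litter. Under the block Hk2 joined the 8 genes of the 34 with an unadjusted p under 0.05, and it changed no other call. Signal over background limits the dim genes, such as Pfkm, Pdk1 and Ldhd, whose differences may be understated.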
